A study of Mus musculus with 2 samples.

Results

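The data described here are the reads of 7 genes that mark the alternative activation of macrophages: Arg1, Retnla, Chil3, Pdcd1lg2, Mgl2, Mrc1 and Cd163. The genes were taken by name from the 35208 gene rows of the matrix, of which 34895 held a read, and all 7 had reads. The cells came from ear skin with IgE-mediated chronic allergic inflammation (IgE-CAI), a model in which mice receive IgE against the hapten TNP and are challenged on the next day with TNP coupled to ovalbumin (OVA). Mice of the strain BALB/c were either wild type (WT) or lacked the chemokine receptor gene Ccr2 in every cell (Ccr2-/-), a receptor through which classical monocytes leave the bone marrow. Every mouse, WT or Ccr2-/-, was given 300 µg of anti-TNP IgE by vein and 10 µg of TNP-OVA into the ear skin, and skin was taken 3 or 5 days later. No unchallenged skin was part of the library. According to the methods the mice were male and 7 to 12 weeks old, and the number of mice behind each pool is not stated in the sources used here. Each genotype and day was 1 pool of cells with its own hashtag antibody. The 4 pools were mixed, and 10000 cells were loaded into the microwells of a BD Rhapsody cartridge and sequenced as 1 library by the TAS-Seq protocol. With 1 pool per genotype and day, a difference between genotypes within a day has no replicate, and differences between mice, between cell isolations and between genotypes cannot be told apart.

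Macrophages exposed to interleukin 4 or interleukin 13 take on the alternative state. Both cytokines bind receptors that contain the chain encoded by Il4ra, and the signal reaches the genes through the transcription factor STAT6. Such cells are known in skin for calming allergic inflammation, for tissue repair and for clearing dead cells, and several of their marker genes are also used by macrophages that reside in healthy dermis. Of the 7 genes, 3 encode enzymes or secreted proteins. Arg1 encodes arginase 1, which splits arginine into ornithine and urea. Retnla encodes the secreted protein RELMα, and Chil3 encodes Ym1, a secreted lectin of the chitinase family. The other 4 encode proteins of the cell surface. Pdcd1lg2 encodes PD-L2, a ligand of the inhibitory receptor PD-1 on T cells. Mgl2 encodes a lectin that binds galactose and N-acetylgalactosamine, Mrc1 encodes the mannose receptor CD206, and Cd163 encodes the scavenger receptor for haemoglobin bound to haptoglobin.

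On the build GRCm38 (GENCODE M21), Arg1 spans chr10:24915221-24927484 on the minus strand and Retnla chr16:48842551-48844461 on the plus strand. Chil3 spans chr3:106147554-106167564 on the minus strand and Pdcd1lg2 chr19:29410919-29471161 on the plus strand. The other 3 lie on plus strands, Mgl2 at chr11:70130329-70137550, Mrc1 at chr2:14229392-14332057 and Cd163 at chr6:124304656-124330527. Because STAT6 carries the signal to these genes, the 250 bases before the start of each gene were searched for the letters TTCNNNNGAA, the spacing that STAT6 prefers, and for TTCNNNGAA, the spacing shared by other STAT proteins. RefSeq promoters of GRCm38.p6 held 6 of the 7 genes. Positions count from the RefSeq start, which for Retnla lies inside the GENCODE span given above. The Retnla match is therefore nearer to the GENCODE start than its position says. TTCNNNNGAA reads the same on both strands and stood before Retnla and Pdcd1lg2, at bases 145 to 136 and 82 to 73 before the start (written -145 to -136 and -82 to -73). TTCNNNGAA stood before Chil3, at -172 to -164. Neither was found before Mgl2, Mrc1 or Cd163. Of 32851 promoters searched in the same way, 5.85% held the first motif and 7.02% the second, so a match is common and is given as a description of these letters only. The 3 matches are printed with 35 bases on each side, 5′ to 3′ on the strand of the gene, with the match in capitals. The printed stretches lie at chr16:48842429-48842508, chr3:106167693-106167771 and chr19:29410802-29410881.
Retnla: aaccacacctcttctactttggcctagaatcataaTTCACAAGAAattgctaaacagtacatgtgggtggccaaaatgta
Chil3: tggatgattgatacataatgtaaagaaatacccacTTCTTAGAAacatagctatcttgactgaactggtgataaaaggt
Pdcd1lg2: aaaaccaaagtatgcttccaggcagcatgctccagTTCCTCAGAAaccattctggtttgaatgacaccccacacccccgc

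Of 8953 cell barcodes, 7623 carried 1 hashtag and 7118 were kept after a limit of 20% mitochondrial reads. The barcodes had a median of 28324 reads (3113 to 713596), and the pools held 1543 (WT day 3), 1037 (WT day 5), 2191 (Ccr2-/- day 3) and 2347 cells (Ccr2-/- day 5). The values are reads, not molecules, so the intervals given here cover counting error only. Levels are given as CPM, the reads of a gene scaled to 1000000 reads of all genes in the summed cells of a group. CPM values are not scaled to gene length and are compared between groups for 1 gene, never between genes. Monocytes and macrophages form 1 class, Mo-Mac-like cells, from clusters 8 and 10, whose grouping did not use the 7 genes. Of 12 monocyte and macrophage markers, 10 passed in cluster 8 and 8 in cluster 10. Mo-Mac-like cells numbered 420, 426, 125 and 85 in the order of pools above. WT day 3 had 244 of its cells in cluster 10, while the other pools had most of theirs in cluster 8 (371, 78 and 50 cells). Ccr2 stood at 822 and 618 CPM in the WT and at 67.1 and 52.2 CPM in the Ccr2-/- Mo-Mac-like cells, and in each Ccr2-/- pool 1 cell held much of that remainder (46.8% and 47.2% of the reads).

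Mo-Mac-like cells held most reads of every gene but Mgl2. Over all kept cells, Mo-Mac-like cells held 89.2% of the Arg1 reads, 90.4% for Retnla, 88.1% for Chil3 and 91.3% for Cd163. For Mrc1 they held 83.6% to 91.4% of the reads of a pool. Pdcd1lg2 was less restricted, with 63.6% of its reads in Mo-Mac-like and 18.9% in dendritic cell (DC)-like cells. Some shares were lower in the Ccr2-/- pools. Mo-Mac-like cells of Ccr2-/- day 5 held 46.8% of the Chil3, 58.8% of the Retnla and 30.9% of the Pdcd1lg2 reads. For Arg1 and Cd163 they held 82.2% and 90.2% there. In Ccr2-/- day 3 they held 42.4% of the Pdcd1lg2 reads. Mgl2 had more of its reads in DC-like cells (55.8%) than in Mo-Mac-like cells (39.9%).

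Among cell types of at least 20 cells, Arg1, Chil3, Mrc1 and Cd163 were highest in Mo-Mac-like cells in all 4 pools. Mgl2 was highest in DC-like cells in all 4, at 521 (WT day 3), 757 (WT day 5), 1033 (Ccr2-/- day 3) and 867 CPM (Ccr2-/- day 5). The Mo-Mac-like cells of the same pools had 131, 121, 253 and 156 CPM. DC-like cells were therefore 3.96- to 6.25-fold above Mo-Mac-like cells, with no overlap of the counting intervals in any pool. Clec10a encodes the closest relative of the Mgl2 lectin and was higher in Mo-Mac-like cells in all pools but WT day 3. It had 129, 103, 71.4 and 40.2 CPM in DC-like and 123, 182, 264 and 188 CPM in Mo-Mac-like cells. The 2 genes are near copies, and how reads common to both were assigned cannot be seen in the matrix. Within Mo-Mac-like cells, 9 DC markers summed to 162, 136, 211 and 188 CPM, the same order of pools as Mgl2, and their part in its level was not tested. Flt3, which the paper lists for its migratory but not its monocyte-derived DCs, had a read in 5 of the 278 Mo-Mac-like cells with an Mgl2 read. This count does not cover monocyte-derived DCs.

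Pdcd1lg2 was highest in Mo-Mac-like cells at WT day 3 (95.3 against 36.7 CPM in DC-like cells), and in DC-like cells in the other 3 pools. There DC-like cells had 59.2, 94.4 and 81.9 CPM, against 30.5, 47.8 and 46.7 CPM in Mo-Mac-like cells. Basophil-like cells of the Ccr2-/- pools also had Pdcd1lg2, at 41.1 CPM at day 3 (95% interval 31.1 to 53.4) and 37.4 CPM at day 5 (27.6 to 49.4). Both intervals overlapped those of the Mo-Mac-like cells of the same pool.

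Retnla was highest in Mo-Mac-like cells in all pools but Ccr2-/- day 5. In that pool cluster 6 had 615 CPM and Mo-Mac-like cells 479 CPM. Cluster 6 was left without a name, since too few markers of any type passed, and it was led by Retnlg, Alox15 and F5. Retnlg is a near copy of Retnla and stood at 7217 CPM in these cells, and 68.0% of their Retnla reads came from 1 cell. The level of Retnla in cluster 6 is therefore uncertain. Neutrophil-like cells had Arg1 at 182 CPM and Chil3 at 168 CPM in Ccr2-/- day 5, the latter next to the 218 CPM of the Mo-Mac-like cells. Only 9.85% and 10.2% of those neutrophil-like cells had a read of the gene. Many second places rested on 1 cell, such as endothelial-like cells of WT day 5, of whose 232 CPM of Chil3 1 cell gave 99.3%. Fibroblast-like cells, used as the level of stray reads, had between 0.251 and 32.6 CPM of any of the 7 genes. They were deep (median 70569 to 136410 reads), so this level may not hold for shallow cells. Cluster 11, unnamed and shallow (median 4636 to 5852 reads), had Mrc1 at 659 (WT day 3), 291 (Ccr2-/- day 3) and 279 CPM (Ccr2-/- day 5). Neutrophil-like cells of Ccr2-/- day 5 had a median of 9432 reads, and the part of stray reads in their values was not tested.

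**Figure D1:**
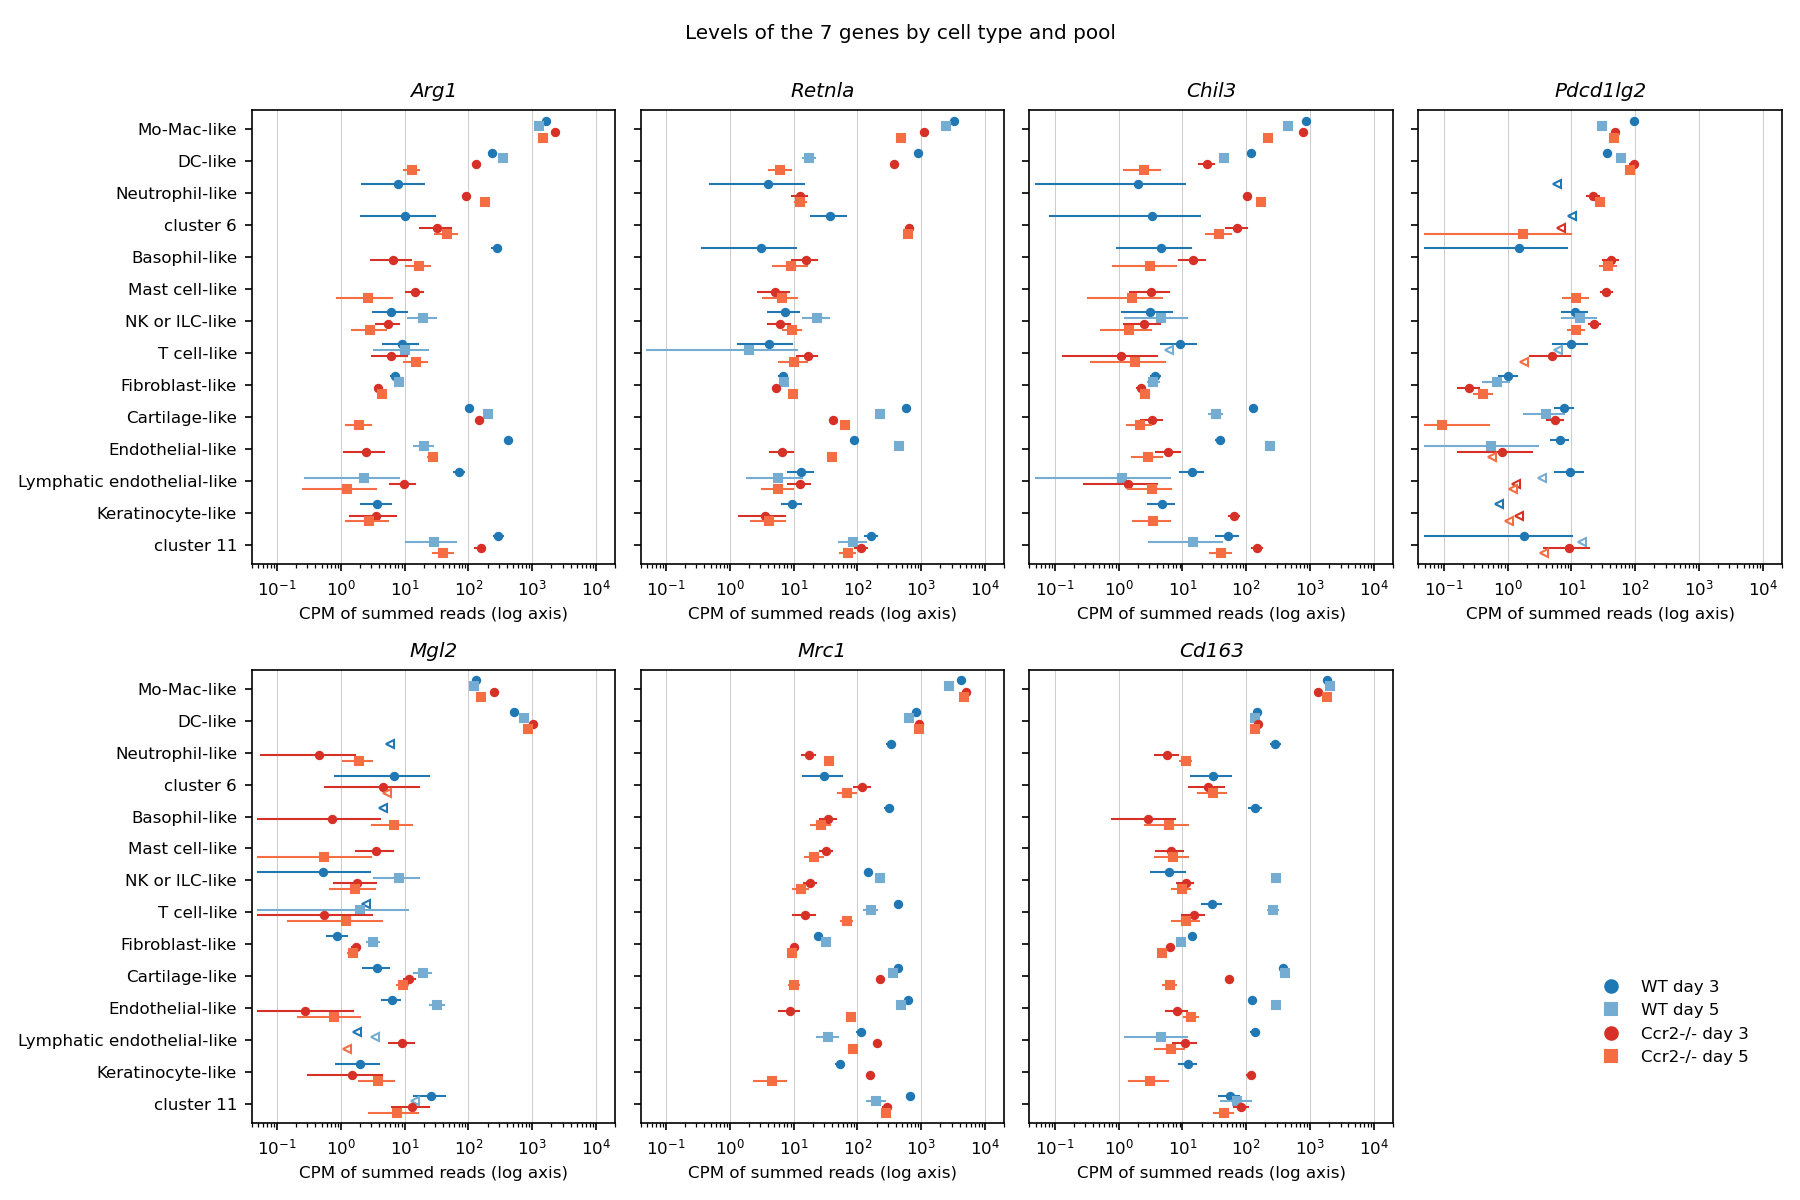
Level of each gene (x axis, CPM of summed reads, log scale) in each cell type (y axis) by pool. Points are the 4 pools, lines are exact Poisson 95% intervals of counting error, and open triangles mark the limit that 0 reads allow. Mo-Mac-like cells stand at the right for Arg1, Chil3, Mrc1 and Cd163, while Mgl2 lies further right in DC-like cells, at 521 to 1033 CPM.

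Most reads of the 3 secreted or enzymatic products came from the highest cells. In Mo-Mac-like cells Arg1 stood at 1643 CPM in WT day 3, 1288 CPM in WT day 5, 2240.1 CPM in Ccr2-/- day 3 and 1464 CPM in Ccr2-/- day 5. The 10% of cells with the most Arg1 reads held 57.3% to 73.8% of them. Among cells with an Arg1 read, the median cell had 948, 599, 1866 and 1412 CPM, and the highest cell of WT day 3 reached 26980.2 CPM.

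Retnla was at 3218, 2487, 1105 and 479 CPM in the same order. The top 10% of cells held 83.9% to 95.5% of the reads. Of the Ccr2-/- day 5 reads, 32.3% came from 1 cell. Among cells with a Retnla read, the median cell stood in the same order as the sums, with 1538 and 788 CPM in the WT pools and 132 and 36.3 CPM in the Ccr2-/- pools. Chil3 stood at 862, 456, 784 and 218 CPM, with 78.8% to 86.5% of reads in the top 10% of cells.

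Of the 4 surface proteins, Mrc1 and Cd163 were spread more evenly. Mrc1 was at 4202, 2768, 4985 and 4644 CPM, and its top 10% of cells held 29.6% to 35.9% of the reads. Cd163 was at 1821, 2083, 1352 and 1838 CPM, with 48.5% to 56.4% of reads in the top 10%. Mgl2 stood at 131, 121, 253 and 156 CPM, with 59.3% to 87.8% of reads in the top 10% of cells. Pdcd1lg2 stood at 95.3 CPM in WT day 3, 30.5 CPM in WT day 5, 47.8 CPM in Ccr2-/- day 3 (interval 43.7 to 52.2) and 46.7 CPM in Ccr2-/- day 5 (interval 41.9 to 51.9). Its top 10% of cells held 66.3% to 89.1% of the reads. For Pdcd1lg2 the WT pools were the highest and the lowest of the 4, and the 2 Ccr2-/- pools lay between them and did not differ beyond counting error.

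Shares of cells with a read were taken after each cell was thinned to 10000 reads, which left 401, 405, 118 and 83 Mo-Mac-like cells. Mrc1 was read in nearly every one, in 89.8% (86.4 to 92.6), 98.5% (96.8 to 99.5), 95.8% (90.4 to 98.6) and 96.4% (89.8 to 99.2) of cells, with exact 95% intervals. WT day 3 was the lowest, and its interval did not overlap that of WT day 5. Cd163 followed the same order between the WT pools, with 63.6% (58.7 to 68.3) and 80.7% (76.6 to 84.5) of cells, and stood at 68.6% and 69.9% in the Ccr2-/- pools.

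Arg1 was read in 53.9%, 51.4%, 54.2% and 57.8% of cells, and all 4 intervals, which lay between 44.8 and 68.6, overlapped. Chil3 was read in 44.1% (39.2 to 49.2) of WT day 3 and 29.1% (24.8 to 33.8) of WT day 5 cells, and in 34.7% and 25.3% of the Ccr2-/- cells. Retnla had a read in 30.7%, 41.5%, 33.1% and 18.1% of cells. So at WT day 5 more cells had a Retnla read than at day 3, with intervals of 36.6 to 46.5 and 26.2 to 35.4, although its CPM was lower. Mgl2 was read in 20.7%, 34.6%, 31.4% and 21.7% of cells. Pdcd1lg2 was read in 22.9%, 11.1%, 21.2% and 22.9%, with WT day 5 (8.22 to 14.6) below WT day 3 (18.9 to 27.4).

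In fibroblast-like cells at the same depth, 8.33% to 13.2% of cells had an Mrc1 read and 0.292% to 6.73% had a read of any of the other 6 genes. Those cells had median depths of 70569 to 136410 reads before thinning, against 48874 to 66961 in Mo-Mac-like cells. DC-like cells had an Mgl2 read in 34.8% to 53.8% of cells and a Pdcd1lg2 read in 9.63% to 28.2%.

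**Figure D2:**
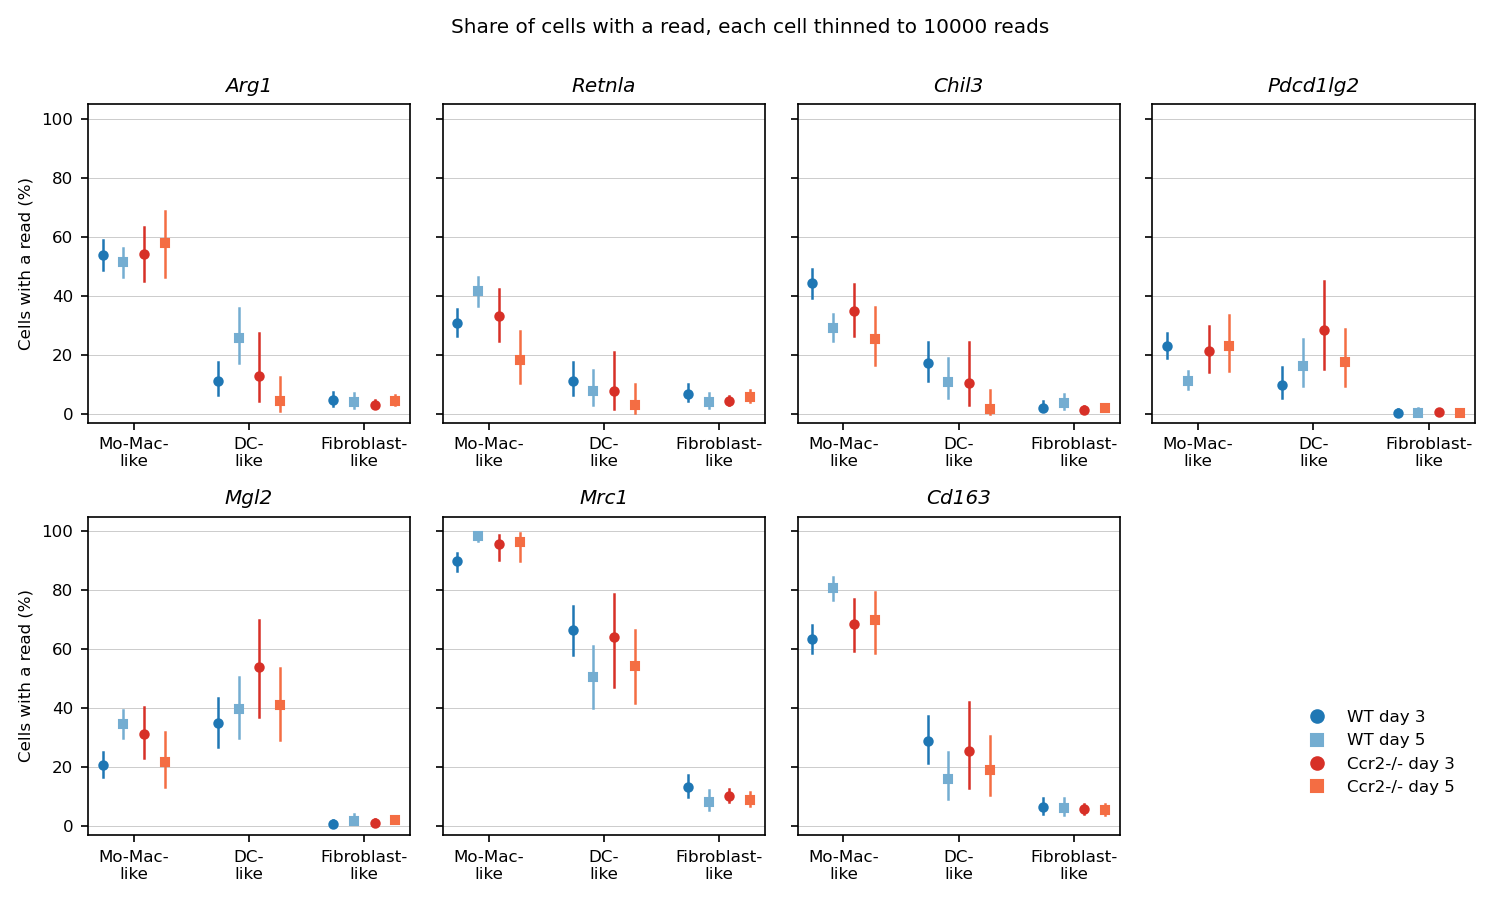
Share of cells with at least 1 read of each gene (y axis, percent) in Mo-Mac-like, DC-like and fibroblast-like cells, each cell thinned to 10000 reads. Points are pools and lines exact 95% intervals. Mrc1 is read in 89.8% to 98.5% of Mo-Mac-like cells, and no gene is read in more than 13.2% of fibroblast-like cells.

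The genotypes were compared over both days on the 4 sums of Mo-Mac-like reads by edgeR's quasi-likelihood test with day in the model, which leaves 1 residual degree of freedom. Of 16191 genes tested 2 were called (0.0124%), Ccr2 and Cyp26b1, and none of the 7 genes was among them, while 2544 genes had an unadjusted p under 0.05. Retnla had the largest difference of the 7. It was lower in the Ccr2-/- pool at both days, by 2.91-fold at day 3 and 5.19-fold at day 5. Its log2 fold change was -1.91 ± 0.23 (SE) with an adjusted p of 0.0844 by edgeR's quasi-likelihood test. DESeq2 called it (adjusted p = 1.07e-10), as did edgeR with library sizes only, without the filter on low counts and at Leiden resolution 2. RLE scaling and a hashtag ratio of 10 did not, so this difference stood at the edge of the threshold. With 1 pool left out, its log2 fold change lay between -2.53 and -1.29. The 12 Mo-Mac markers (10217 and 11607 CPM in WT, 7811 and 9632 CPM in Ccr2-/- pools) and 6 fibroblast markers (1912 and 3222 against 1432 and 921 CPM) were also higher in both WT pools, and their part in the Retnla difference was not tested. At day 3 the share of cells with a Retnla read after thinning was alike in both genotypes. Without thinning, 41.9% of WT and 51.2% of Ccr2-/- cells had a read. The median level among these unthinned cells was 1538 CPM in WT and 132 CPM in Ccr2-/- cells. The Ccr2-/- Mo-Mac-like cells were deeper (median 61360 against 50400.5 reads), and the part of depth in this was not tested.

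The other 6 genes gave log2 fold changes between -0.55 (Chil3) and 0.71 (Mgl2), with adjusted p of 0.213 or more by the same edgeR test. Mgl2 was 1.93-fold and 1.29-fold and Mrc1 1.19-fold and 1.68-fold as high in Ccr2-/- as in WT cells at days 3 and 5. Mrc1 was called without WT day 3 (adjusted p = 0.0436, edgeR, over a range of 0.0436 to 0.894). Arg1 stood at 1.36-fold and 1.14-fold of the WT level, and Cd163 was at 0.743 and 0.883 of the WT level. Pdcd1lg2 was at 0.502 of the WT level at day 3 and at 1.53-fold at day 5. Chil3 stood at 0.910 and 0.479 of the WT level.

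Leaving out cells of more than 100000 reads moved the Ccr2-/- values most. Retnla then fell to 517 and 180.4 CPM in the Ccr2-/- pools, against 2727 and 1927 CPM in the WT pools, so the genotype gap was wider. Arg1 in Ccr2-/- day 5 was then 2683 CPM and Chil3 in Ccr2-/- day 3 was 1381 CPM, above WT day 3 at 780.5 CPM. Pdcd1lg2 in Ccr2-/- day 5 was then 93.1 CPM, next to 85.4 CPM in WT day 3.

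Between days, no gene of 16191 was called by the same edgeR fit (0%), with 1285 at an unadjusted p under 0.05 and 96 called by DESeq2. Day 5 was lower than day 3 in both genotypes for Arg1, Retnla, Chil3, Pdcd1lg2, Mgl2 and Mrc1, while Cd163 was higher at day 5 in both. For Pdcd1lg2 in Ccr2-/- cells the gap was within counting error. Chil3 had the largest difference, with a log2 fold change of -1.40 ± 0.25 (SE) and an adjusted p of 0.503 (edgeR), and DESeq2 called it (adjusted p = 0.000341), as did 1 other of 10 alternatives.

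The 2 clusters of Mo-Mac-like cells carried different members of the gene group. They were formed from other genes of the same cells, so their difference is a description with no test. Cluster 10, whose leading genes included Ccl24, Fcgr1 and Ms4a4c, had more Arg1, Chil3 and Pdcd1lg2 than cluster 8 in 4 of 4 pools. Cluster 8, led by the complement genes C1qa, C1qb and C1qc with Cbr2 and Folr2, had more Retnla and Mgl2 in 4 of 4 pools. Mrc1 was higher in cluster 10 in 3 pools and Cd163 in 2.

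The genotypes differed within these clusters in ways that the sums over both do not show. In cluster 8, the WT pools had 1498 (day 3) and 1145 CPM (day 5) of Arg1, above the 630.3 and 341 CPM of the Ccr2-/- pools. There 1 cell gave 12.7% and 10.4% of the WT and 36.5% and 31.5% of the Ccr2-/- reads. In cluster 10 the order was the opposite, since WT cells had 1761 and 2353 CPM there while Ccr2-/- cells reached 6435 and 4096 CPM. These are 2 pools per genotype, and the differences within clusters were not tested. At Leiden resolution 2, Mo-Mac-like cells also held a cluster led by Ifitm6, Ly6c2 and Ms4a4c, of 77, 5, 8 and 3 cells in the order of pools. The part of such differences in make-up in these values was not tested.

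Retnla was lower in the Ccr2-/- pools in both clusters, with 4427 and 2729 against 1451 and 624 CPM in cluster 8, and 2228 and 684 against 203 and 140.5 CPM in cluster 10. Chil3 in cluster 8 was at 609 and 406 CPM for WT, against 86.7 and 55.3 CPM in Ccr2-/- cells, of which 1 cell gave 73.6% and 70.3%. Pdcd1lg2 in cluster 8 was also higher in the WT pools, at 62.2 and 28.5 against 19.9 and 10.8 CPM. In cluster 10 it was level in 3 pools, at 122 (WT day 3), 121 (Ccr2-/- day 3) and 131 CPM (Ccr2-/- day 5), with overlapping intervals, while WT day 5 had 45.5 CPM.

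**Figure D3:**
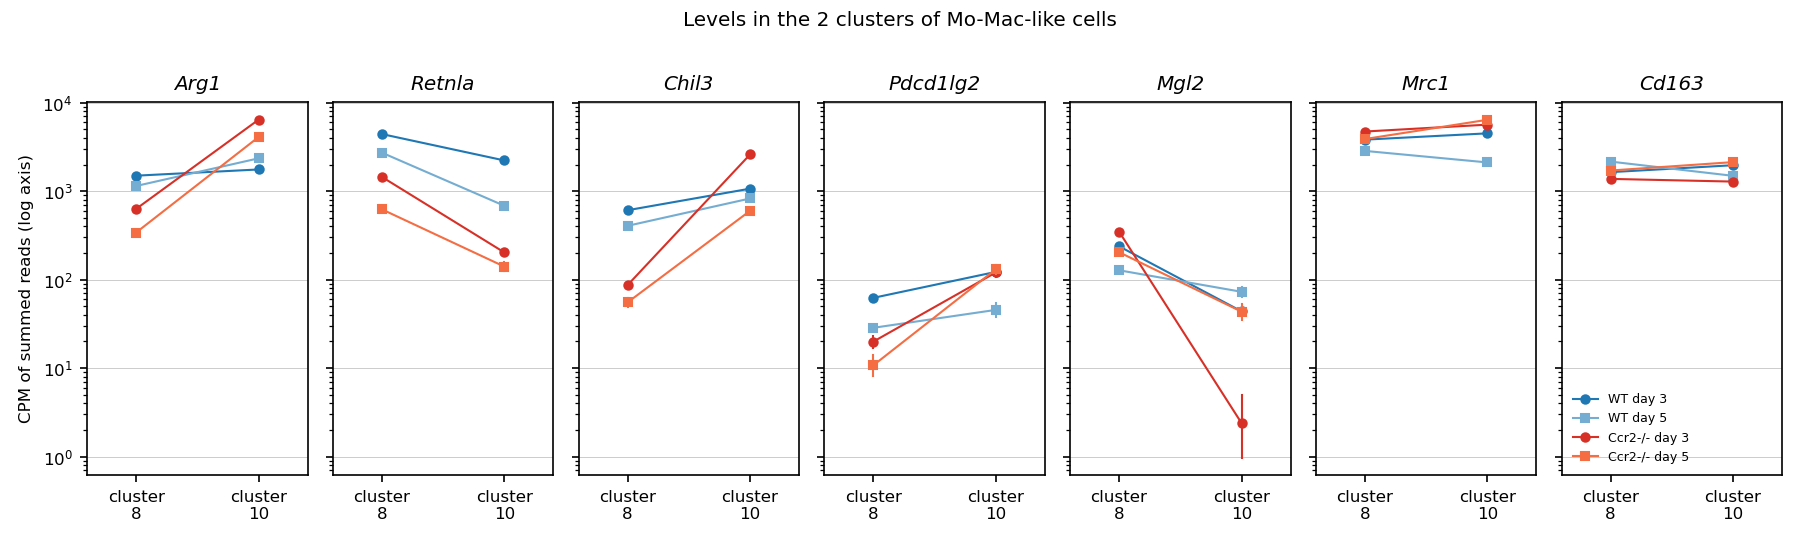
Level of each gene (y axis, CPM of summed reads, log scale) in clusters 8 and 10 of Mo-Mac-like cells. Each line joins the 2 values of 1 pool, and vertical lines are exact Poisson 95% intervals. Arg1 rises from cluster 8 to cluster 10 most steeply in the Ccr2-/- pools (630.3 to 6435 CPM at day 3), and Retnla and Mgl2 slope down in all 4 pools.

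To place the genes along known kinds of skin macrophage, Mo-Mac-like cells were gated on 1 transcript each, Ly6c2 (a gene of classical monocytes), Gpnmb (a gene of late monocyte-derived macrophages) or Lyve1 (a gene of resident-type macrophages). A cell thinned to 10000 reads needed 2 reads of 1 marker and fewer of the others. The Ly6c2 gate held 151, 15, 20 and 9 cells in the order of pools given above, the Lyve1 gate 19, 16, 23 and 12, and the Gpnmb gate 6 and 13 in WT and 0 in Ccr2-/- cells. Most cells (716) passed no gate. Of markers that took no part in the gates, Plac8, a monocyte gene, stood at 1322, 393, 912 and 556 CPM in Ly6c2-gated cells and at 0.793 to 14.8 CPM in Lyve1-gated cells. Folr2 was at 44.0 to 199 CPM in Ly6c2-gated and 694 to 997 CPM in Lyve1-gated cells. The Ly6c2-gated cells of WT day 5 stood apart, with Apoe at 4854 and Trem2 at 263 CPM, both genes of mature macrophages, against 983 to 1156 and 20.7 to 55.4 CPM in the other 3 pools, so that the marker does not set them apart as monocytes. Values that rest on this pool are also given without it where that changes a call. Fibroblast markers summed to 20129 CPM in the Gpnmb gate of WT day 5 against 719 to 1532 CPM in the Ly6c2 and Lyve1 gates, and their part in the results was not tested.

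Between the Lyve1 and the Ly6c2 gate, 3 of the 7 genes passed the test in 4 pools. Arg1 and Chil3 were lower and Mgl2 was higher in Lyve1-gated cells, while Mrc1 and Cd163 were not called. edgeR's quasi-likelihood test with the pool as a block called 135 of 10932 genes (1.23%), and the median log2 fold change of all genes was 0.13.

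Arg1 was at 1319, 3319, 6099 and 3331 CPM in Ly6c2-gated cells and at 147, 143, 34.5 and 165 CPM in Lyve1-gated cells. The gates did not overlap in any pool. The log2 fold change was -4.79 ± 0.66 (SE; adjusted p = 0.00797, edgeR). In WT day 5 1 cell held 77.3% of the Ly6c2-gated Arg1 reads, and without it the level was 1019 CPM, still above the Lyve1 gate.

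Chil3 was at 880.1, 170.1, 2975 and 958 CPM in Ly6c2-gated cells. In the Lyve1 gate it had 2, 1, 7 and 3 reads in all, or 1.06 to 2.78 CPM, which is at the level of the fibroblast-like cells (2.21 to 3.78 CPM). The fitted log2 fold change was -9.27 ± 0.78 (SE; adjusted p = 0.00028, edgeR), a size that rests on so few reads that it depends on how the fit treats low counts. After thinning, no Lyve1-gated cell had a Chil3 read (upper 95% limits of 17.6%, 20.6%, 14.8% and 26.5% of cells with a read at that depth), against 40% to 85% of Ly6c2-gated cells. Before thinning, 1, 1, 6 and 2 Lyve1-gated cells had one.

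Mgl2 ran the other way, with 39.2, 64.6, 8.24 and 0 CPM in Ly6c2-gated cells (0 reads allow up to 7.76 CPM) and 673, 172, 479 and 262 CPM in Lyve1-gated cells. The log2 fold change was 4.36 ± 0.81 (SE; adjusted p = 0.0271, edgeR). The call was lost without the Ccr2-/- day 3 pool (adjusted p = 0.150) or the Ccr2-/- day 5 pool (adjusted p = 0.0763), over a range of 1.72e-14 to 0.150.

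Retnla varied widely between pools and was not called. It was at 1068, 6331, 21.2 and 5.18 CPM in Ly6c2-gated cells and at 7099, 1919, 1988 and 942 CPM in Lyve1-gated cells (log2 fold change 3.97 ± 1.29 SE, adjusted p = 0.226, edgeR). The value of 6331 CPM in WT day 5 rested on 1 cell with 94.7% of the reads, and stood at 452 CPM without it. Lyve1-gated cells were then higher in all 4 pools. This reading was added after the values had been seen, and without the WT day 5 pool the test called the gene (adjusted p = 0.0047, over a range of 8.32e-36 to 0.920).

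Pdcd1lg2 was at 122, 53.2, 149 and 20.7 CPM in Ly6c2-gated and 3.43, 0, 1.98 and 9.79 CPM in Lyve1-gated cells, the latter from 4, 0, 5 and 17 reads (0 reads allow up to 3.18 CPM). It was lower in the Lyve1 gate in 4 of 4 pools but not called (log2 fold change -4.71 ± 1.42 SE, adjusted p = 0.182, edgeR). DESeq2 (adjusted p = 0.000334) and edgeR without the filter on low counts (adjusted p = 0.00052) called it, over a range of 0.000334 to 0.601.

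Mrc1 went opposite ways in different pools. It was at 3789, 1941, 6245 and 6183 CPM in Ly6c2-gated and 3151, 3253, 4571 and 3893 CPM in Lyve1-gated cells, so that it was higher in the Lyve1 gate in WT day 5 and lower in the other 3 pools, without overlap of the counting intervals in any pool. Cd163 was at 1545, 1063, 1477 and 968 CPM in Ly6c2-gated and 1435, 1567, 1691 and 1176 CPM in Lyve1-gated cells, higher in the Lyve1 gate in all pools but WT day 3. Mrc1 had a log2 fold change of -0.16 ± 0.25 (SE) and Cd163 one of 0.24 ± 0.22 (SE), and neither was called.

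**Figure D4:**
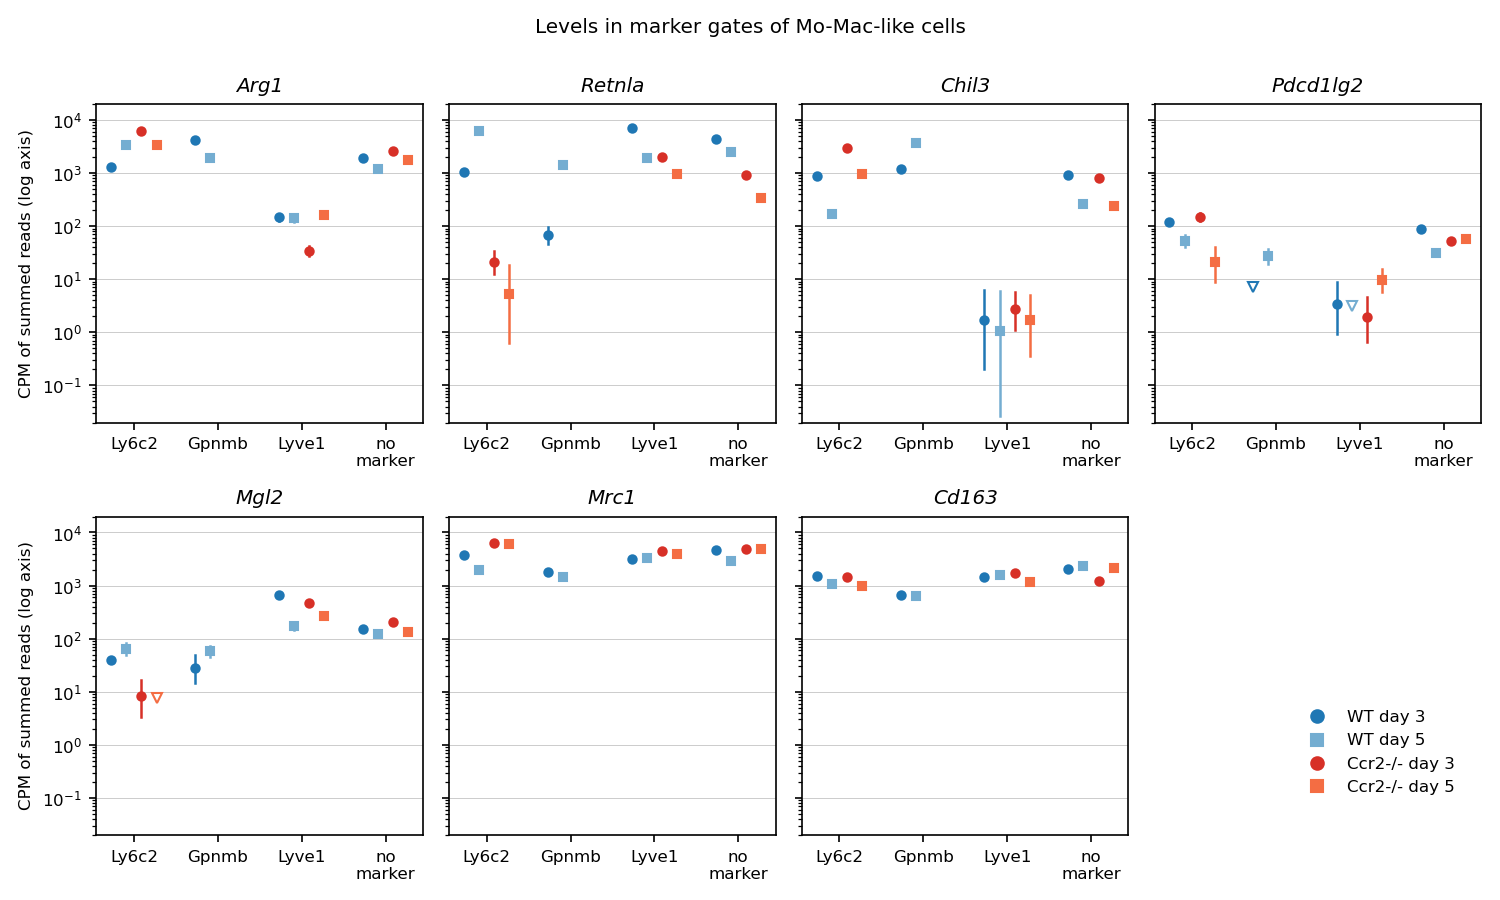
Level of each gene (y axis, CPM of summed reads, log scale) in Mo-Mac-like cells gated on Ly6c2, Gpnmb or Lyve1 or passing no gate, by pool. Lines are exact Poisson 95% intervals and open triangles the limit that 0 reads allow. Chil3 drops to 1.06 to 2.78 CPM in the Lyve1 gate, Mgl2 is higher there than in the Ly6c2 gate in every pool, and Mrc1 is higher there in WT day 5 and lower in the other pools.

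The Gpnmb gate was filled in the WT pools only, and its values rested on single cells. Arg1 was at 4177 and 1953 CPM, of which 1 cell gave 95.5% and 69.8%, and Chil3 was at 1214 and 3609.9 CPM, of which 1 cell gave 99.8% and 72.7%. Without the top cell of each pool, Arg1 was at 324 CPM in WT day 3 and 678 CPM in WT day 5. Chil3 was then at 2.91 CPM (1 read) and 1086 CPM. Against the Lyve1 gate, 24 genes were called (0.22%), among them Arg1 (log2 fold change -4.76 ± 0.73 SE, adjusted p = 0.0258, edgeR) and Chil3 (log2 fold change -11.6 ± 0.91 SE, adjusted p = 0.00056, edgeR) for the Lyve1 against the Gpnmb gate. Without WT day 5 or Ccr2-/- day 5 the Arg1 call was lost (adjusted p of 0.0627 and 0.0592), and with a hashtag ratio of 10 it was lost too (0.0899, the top of a range from 2.10e-50). Against the Ly6c2 gate, edgeR called 0 of 10932 genes (0%), with 781 at an unadjusted p under 0.05 and 276 called by DESeq2. Mrc1 was at 1814 and 1480.5 CPM and Cd163 at 656 and 630.1 CPM in Gpnmb-gated cells, both under the Ly6c2-gated cells of the same pools (1941 to 3789 and 1063 to 1545 CPM), but neither difference passed the test (adjusted p of 0.582 and 0.523, edgeR).

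Of the related genes, 18 other alternative activation genes were tested between the Lyve1 and Ly6c2 gates, and 4 rose and 2 fell in Lyve1-gated cells (median log2 fold change 0.54, against 0.13 for all genes, of which 1.23% were called). The lectin genes Cd209f (11.5 ± 2.07 SE) and Cd209d (6.61 ± 1.15 SE) and the folate receptor gene Folr2 (3.28 ± 0.49 SE) rose. The transglutaminase gene Tgm2 (-4.24 ± 0.62 SE) and the fibronectin gene Fn1 (-3.36 ± 0.39 SE) fell. Beside the same 1.23% of all genes, 1 of 9 classical activation genes fell, Ptgs2 (-3.32 ± 0.69 SE), which encodes cyclooxygenase 2. F13a1, which encodes a chain of coagulation factor XIII, was the other gene that rose (2.58 ± 0.30 SE). Of 5 genes of arginine use 1 fell (again beside 1.23%), Odc1 (-2.07 ± 0.37 SE), which encodes ornithine decarboxylase. F13a1 and Odc1 were named after their values were seen. Of 13 genes of interleukin 4 signalling 0 were called. The adjusted p of the genes named lay between 0.00324 and 0.0447 (edgeR). Between the Lyve1 and Gpnmb gates, Tgm2 (-4.38) fell and F13a1 (3.49) rose among the same 18 genes. No gene of the 4 lists was called between the Gpnmb and Ly6c2 gates, between genotypes or between days.

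Cells with a Pdcd1lg2 read were compared with the other Mo-Mac-like cells of the same pool. Of the cells thinned to 10000 reads, 92, 45, 25 and 19 had a Pdcd1lg2 read and 309, 360, 93 and 64 had none. Arg1 stood at 2245, 3184, 5220.4 and 2984 CPM in the former and 1425, 1002, 1595 and 1171 CPM in the latter, higher in 4 of 4 pools. Chil3 was also higher in 4 of 4, at 1140.1, 685, 1962 and 361 against 760.2, 420.1, 529 and 191 CPM.

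Of 14645 genes edgeR called 3 (0.0205%), Pdcd1lg2 itself, F13a1 and Coch (named after its value was seen), both of the latter lower in cells with a Pdcd1lg2 read (log2 fold change -1.86 and -6.70), while 1587 genes had an unadjusted p under 0.05. Arg1 was not called (log2 fold change 1.44 ± 0.20 SE, adjusted p = 0.0872, edgeR), nor was Chil3 (1.11 ± 0.23 SE, adjusted p = 0.189). DESeq2 called 441 genes and edgeR without the filter 293. DESeq2 had Arg1 (adjusted p = 5.95e-06) and Chil3 (adjusted p = 0.00439) among them. Over the alternatives the adjusted p of Arg1 ranged from 1.38e-07 to 0.367 and that of Chil3 from 0.000574 to 0.606, and each was called in 2 of 12. In the other lists 1 gene was called, F13a1. Mrc1, Cd163, Retnla and Mgl2 had log2 fold changes of 0.45, 0.38, 0.14 and -0.54 and were not called.

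Co-detection was counted in the same thinned cells for each of the 21 pairs of genes. A pair was more frequent than apart in all 4 pools for 11 pairs and in none for 4 pairs. The 4 were Arg1 with Mgl2, Chil3 with Mgl2, Pdcd1lg2 with Mgl2 and Chil3 with Mrc1. The 11 included Mrc1 with Arg1, Retnla, Pdcd1lg2, Mgl2 and Cd163. Every pair with Mrc1 rests on few cells without an Mrc1 read, 41, 6, 5 and 3 in the order of pools. Cells are not replicates, so no test is given. Cells with a read of a gene had also had more reads in all before thinning (for Pdcd1lg2 a median of 63685 reads with and 52436 without).

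Pdcd1lg2 was found mainly in cells with an Arg1 read. Over all pools, 29.3% of the cells with an Arg1 read had a Pdcd1lg2 read, against 5.10% of the cells without one. Chil3 was read in 43.8% of the cells with Arg1 and 25.9% of those without. Of the Chil3 reads, 79.6%, 85.5%, 97.3% and 95.4% lay in cells with an Arg1 read. Retnla was nearly even, with 35.4% of cells with Arg1 and 32.9% of those without.

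Mgl2 was read in 19.0% of cells with an Arg1 read and 37.4% of those without, in 17.6% and 33.1% for Chil3, and in 12.7% and 30.9% for Pdcd1lg2. It was found with Retnla, in 38.0% of the cells with a Retnla read and 22.2% of the others. Cells with an Mgl2 read had a read of C1qa in 82.0% and of Ly6c2 in 9.35%, against 40.7% and 32.1% of the other cells. The order held in each pool.

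Only 55 of 1007 cells had no Mrc1 read, and 41 of them were from WT day 3. Of the 55 cells, 87.3% had a Ly6c2 read, 90.9% a Ccr2 read and 5.45% a C1qa read, and 16.4% had a Cd163 read against 74.8% of the cells with Mrc1. These cells were shallower (a median of 30495 against 56198 reads before thinning). Cells had a median of 3 of the 7 genes in every pool.

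**Figure D5:**
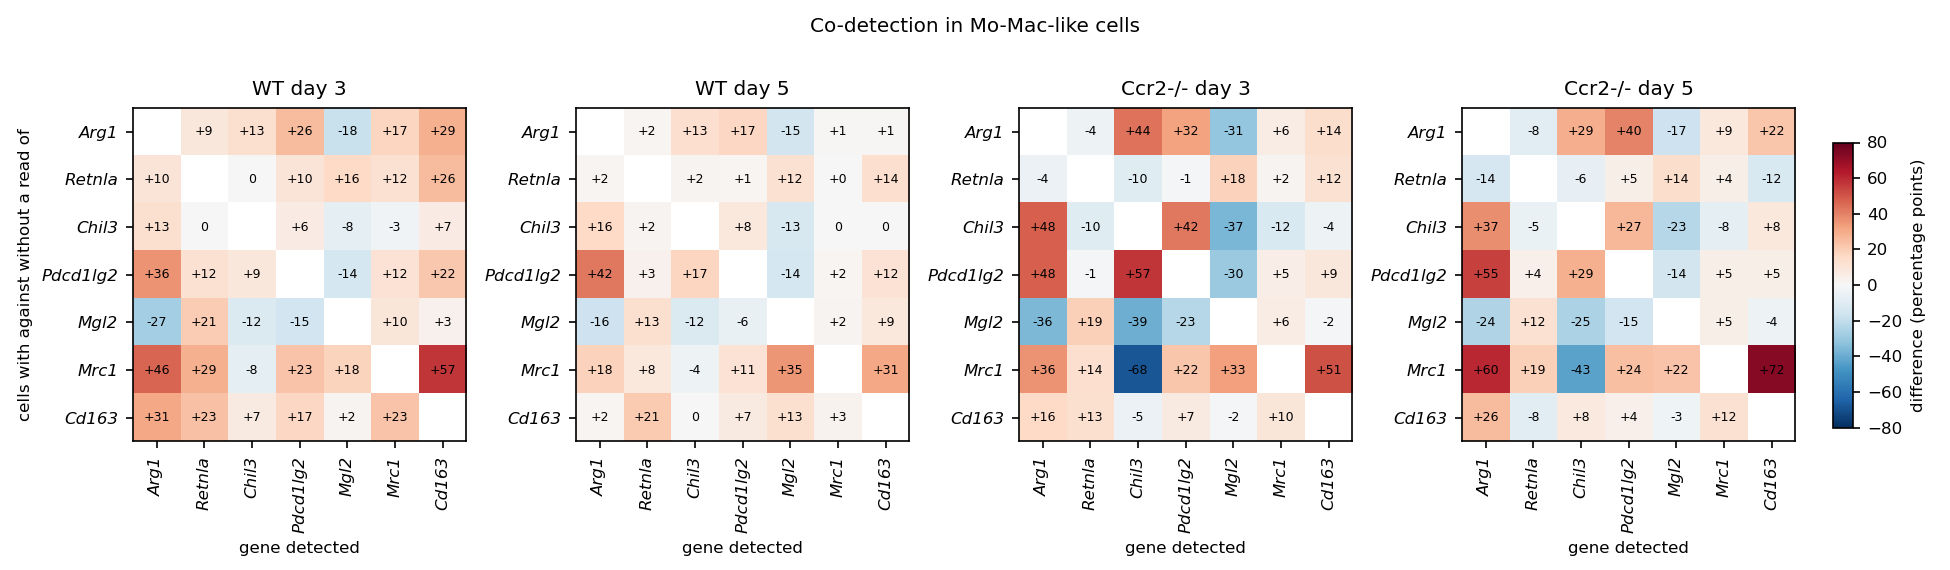
Co-detection in Mo-Mac-like cells by pool, each cell thinned to 10000 reads. Colour and figure in a square give the share of cells with a read of the column gene among cells with a read of the row gene minus that among cells without it, in percentage points. The Arg1, Chil3 and Pdcd1lg2 squares are above 0 and the squares joining them to Mgl2 are below 0 in all 4 pools; the Mrc1 row rests on the 55 cells without an Mrc1 read.

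The receptor chain Il4ra was found in 93.9% of Mo-Mac-like cells with a Pdcd1lg2 read and 64.9% of those without, in 81.7% and 56.9% for Arg1, but in 59.7% and 74.1% for Mgl2. Its level in Mo-Mac-like cells was 806, 241, 899 and 648 CPM, lowest at WT day 5. That pool was lowest for Arg1, Pdcd1lg2, Mgl2 and Mrc1, highest for Cd163 and second highest for Retnla. Chil3 was at 456 CPM there, above the 218 CPM of Ccr2-/- day 5. Of the cell types looked at, the ligand Il4 had its highest level in basophil-like cells, at 1126 (WT day 3), 612 (Ccr2-/- day 3) and 3109 CPM (Ccr2-/- day 5), while WT day 5 had 2 such cells. Cluster 6 had 327, 315 and 236 CPM in the same 3 pools and mast cell-like cells 190.0, 189 and 50.5 CPM. Fibroblast-like cells of WT day 3 held 1530 Il4 reads, more than the 735 of the basophil-like cells, and 98.8% of them were in 1 cell. Mo-Mac-like cells had 0.585 to 1.78 CPM of Il4. Il13 stood at 107, 284 and 551 CPM in the same 3 pools of basophil-like cells. Nos2, which competes with arginase for arginine in classical activation, stood at 1.06, 4.99, 0.663 and 0 CPM in Mo-Mac-like cells, where 0 reads allow up to 0.411 CPM.

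The genes most like each of the 7 were taken over 51 sums of reads, 1 for each cell type and pool of at least 20 cells, by Pearson correlation of log2(CPM + 1) among 17422 genes. The sums share 1 library and the same pools, so the values describe the pattern and carry no p. Mrc1 and Cd163 were near neighbours of each other (r = 0.88), both close to Gm49151 (0.91 and 0.86), with Ms4a6d (0.88) next for Mrc1 and Nxpe5 (0.85) for Cd163. Retnla and Chil3 were each other's nearest (0.79), followed by Rnase2a (0.79) and Celf4 (0.73) for Retnla and by Arg1 (0.78) and Wfdc17 (0.71) for Chil3. Arg1 was most like Celf4 (0.82), F630040K05Rik (0.80) and the inhibitory Fc receptor gene Fcgr2b (0.80). Mgl2 was most like the lectin genes Cd209e (0.88), Cd209a (0.87) and Cd209d (0.84). Pdcd1lg2 was most like Fcer1g (0.73), which encodes the common γ chain of Fc receptors, Slc38a1 (0.69) and Milr1 (0.69).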

How the data were processed

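One cDNA library and one hashtag library of pooled ear skin cells were analysed. Deposited values of both are counts: the authors passed reads through Cutadapt and Bowtie2 (mouse Ensembl RNA, GRCm38.p6), counted those per gene and cell barcode without molecular identifiers, and kept barcodes above the knee of the read curve. A background correction is described in the methods but is not visible in the values. Of the 8953 barcodes, 8696 were in the hashtag library. 9 further hashtag columns were not used.

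A barcode went to a pool when its highest hashtag had at least 10 reads and 3 times the next. 760 barcodes with few hashtag reads and 570 with several hashtags, taken as doublets, were left out. Doublets within a pool remained. Cells had at least 200 genes and at most 20% mitochondrial reads. Scanpy 1.11.5 clustered them (2000 variable genes without the 7 genes and the related lists, 30 principal components, 20 neighbours, Leiden resolution 1), and clusters were named "X-like" from at least 3 markers.

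CPM of summed reads carry exact Poisson and shares exact Clopper-Pearson 95% intervals. Reads summed per gate and pool (at least 5 cells) were tested by edgeR 4.0.16 (quasi-likelihood, TMM, filterByExpr, Benjamini-Hochberg over all genes), with the pool as a block for gates. Floors are 3 reads. The model was tested on simulated data. Alternatives were RLE or library-size scaling, no filter, DESeq2 1.42.0, stricter hashtags, Leiden resolution 2, a higher gate minimum, no block, and each pool left out. The genes, lists and gates were chosen with earlier results of these data known. Named genes were the 7, the 3 most like each, and up to 6 called genes of the lists per gate comparison.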

Additional observations from a re-analysis of the deposited data

Results flagged for a closer look

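For Pdcd1lg2 in Mo-Mac-like cells, the genotype with the higher level differed between the 2 days. The Ccr2-/- pool was at 0.502 of the WT pool at day 3 and at 1.53 of it at day 5. The WT level went from 95.3 to 30.5 CPM, while the Ccr2-/- pools had 47.8 and 46.7 CPM. With 1 pool per genotype and day this difference was not tested. Of the 7 genes this was the only one whose ratio lay on different sides of 1 on the 2 days, and the class was mostly cluster 10 at WT day 3 and mostly cluster 8 in the other pools.

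Barcodes that were given no pool also held reads of the 7 genes. Summed over the genes, the level was 77.2 CPM in the barcodes with few hashtag reads and 1194 CPM in those with several hashtags. They entered no comparison.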

How the results depend on the processing

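The genes highest in Mo-Mac-like cells (4 of 7), above fibroblast-like cells in share (7 of 7) and the pairs found together (11 of 21) were recomputed. All 12 recomputed counts stayed at or near these, judged by a fixed limit on the fold and not by equal counts. Of 464 refitted fold changes of the 7 genes, 410 kept direction and side of the threshold, 29 passed it, 5 fell short and 20 changed sign, and none of those 20 had been called. The Arg1 and Chil3 calls between the Lyve1 and Ly6c2 gates held in 12 of 12 alternatives. The counts of genes called moved more, in 38 of 68 cases.

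Without the filter on low counts, edgeR called 125 (Gpnmb against Ly6c2), 416 (Lyve1 against Ly6c2), 177 (Lyve1 against Gpnmb), 293 (Pdcd1lg2 read), 697 (genotype) and 102 genes (day). DESeq2 called 276, 726, 425, 441, 602 and 96 in the same order. RLE scaling gave 10 for Gpnmb against Ly6c2, and library sizes alone gave 26 for genotype. A hashtag ratio of 10 gave 1, 14 and 10 for Gpnmb against Ly6c2, Lyve1 against Gpnmb and genotype, and 5 for the Pdcd1lg2 read. Leiden resolution 2 gave 11 for Gpnmb against Ly6c2 and 62 for genotype, and a gate minimum raised by 1 read gave 1 for Gpnmb against Ly6c2. Without the pool as a block, 31 and 80 genes were called for Gpnmb against Ly6c2 and Lyve1 against Gpnmb. The cause was not tested.

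Leaving out 1 pool gave 0 to 25 genes for Gpnmb against Ly6c2 and 9 (without WT day 5) to 53 (without WT day 3) for Lyve1 against Gpnmb. For Lyve1 against Ly6c2 the range was 31 (without Ccr2-/- day 3) to 261 (without WT day 5), with 56 without Ccr2-/- day 5. The Pdcd1lg2 read gave 1 to 2 genes, day 0 to 1, and genotype 0 without either Ccr2-/- pool, 216 without WT day 5 and 379 without WT day 3. These genotype and day fits held the tested term alone, since 3 pools leave no residual degree of freedom for both terms, and the lone pool of an arm was assumed to vary like the others.

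Fold changes that changed sign were uncalled. On the log2 scale, Arg1 for Gpnmb against Ly6c2 was 0.077 with RLE scaling, 0.070 with DESeq2, 0.062 with the hashtag ratio of 10, 0.073 at resolution 2 and -1.12 to 0.58 without 1 pool. In the same comparison Mgl2 was -0.60 with the hashtag ratio, -0.63 at resolution 2 and -0.043 to 0.83 without 1 pool, and Pdcd1lg2 was 0.26 with the hashtag ratio. Mrc1 for Lyve1 against Ly6c2 was 0.14 with the raised gate minimum, and Retnla for the Pdcd1lg2 read was -0.038 with the hashtag ratio. Without 1 pool, Pdcd1lg2 ranged from -4.29 to 6.56 for Lyve1 against Gpnmb. Between genotypes Chil3 ranged from -1.55 to 0.33 and Pdcd1lg2 from -0.99 to 0.67. Between days Retnla ranged from -2.16 to 0.37, Mrc1 from -0.78 to 0.026 and Mgl2 from -0.91 to 0.092. An equal weight for each cell raised Chil3 in Ccr2-/- day 5 to 439 CPM and Pdcd1lg2 to 77.2 CPM. Apart from the 151 cells of the Ly6c2 gate in WT day 3, the Ly6c2, Gpnmb and Lyve1 gates held 6 to 23 cells. This limits every comparison between them.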
